A study of Xenopus tropicalis with 18 samples.

Results

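The frog urostyle is a bony rod behind the sacrum that replaces the tail skeleton at metamorphosis, and the coccyx is its dorsal component, while the hypochord is the ventral one. In all, 6 coccyx libraries of wild-type Xenopus tropicalis tadpoles were compared, 3 of stage 65 against 3 of stage 61, out of 18 libraries in the series. They were chosen by the tissue and the stage in their labels and by no measured value. Each library was made from total RNA of coccyx tissue cut from frozen sections with a laser and was amplified by PCR before sequencing. No agent, transgene or mutant allele is given for any group, the labels give no age in days, and they do not say how many animals a library holds or whether replicates came from separate animals. P-values here therefore measure only the spread between these libraries, which may be technical.

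Thyroid hormone drives metamorphosis in frogs, and it triggers growth and bone formation in some tissues and death and resorption in others, such as the tail. Stage 61 in the usual staging of Xenopus falls in the climax of this change, when the limbs are present and the tail is still long. At stage 65 little of the tail is left. Vertebrate axial skeleton forms largely through cartilage that is later replaced by bone, so that a dissected piece of it can hold cartilage, bone, marrow and surrounding connective tissue. In bulk tissue, fewer cells of a type and less RNA per cell cannot be told apart.

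Replicates 1 and 2 of each stage shared a table of 19921 gene identifiers, with 3347485 to 7215011 counts in each coccyx library. Replicate 3 listed 21458 identifiers of its own, with 11186152 counts at stage 61 and 10418992 at stage 65. The 2 tables had 11315 identifiers in common, but over these the stage 65 libraries of replicates 1 and 3 had a Spearman's rho of 0.00879, against 0.956 for replicates 1 and 2. Tests across genes were therefore run within replicates 1 and 2, and replicate 3 was described within its own table. The files do not pair identifiers with gene names, so that 4 genes are given by identifier, the others are given by number, and the labelled tissue was not checked against marker genes.

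The coccyx libraries of stage 65 held somewhat more detectable genes than those of stage 61 within each table. With 3 libraries a stage, neither permutation test could reach a p under 0.05, so the tests cannot decide whether the stages differ. When each library was reduced to 3347485 counts, the smallest total, 12937 genes were detected in replicate 1, 12849 in replicate 2 and 13546 in replicate 3 of stage 61. At stage 65 the numbers were 13224, 13597 and 13934 in the same order. The stages overlapped, because replicate 3 of stage 61 lay above replicate 1 of stage 65, although within each table the stage 65 libraries were higher. That overlap is between tables that list different numbers of genes, so the spread over 3 libraries also holds the difference between tables. The means were 13110 ± 380 and 13585 ± 355 genes (SD, n = 3 per stage), and p was 0.2 in an exact two-sided permutation test, where 3 against 3 libraries can reach no less than 0.1 (Benjamini-Hochberg adjusted p = 0.6 for a family of 3 measures). With the stages exchanged only within a table, the 12 arrangements gave an exact permutation p of 0.167, which is the least they can give (adjusted p = 0.5).

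The 10 most abundant genes of a library took a share of its counts that had no common direction. It was 18.9%, 31.5% and 11.8% in replicates 1 to 3 of stage 61, and 19.4%, 11.7% and 19.8% at stage 65. Replicate 2 of stage 61 stood above the other 5 libraries. The mean difference between stages was -3.77 percentage points (exact permutation p = 0.8, adjusted p = 0.8), and without that library it was 1.604. Within replicates 1 and 2 the difference was -9.67 points, and within replicate 3 it was 8.02 points. The effective number of genes, computed as e raised to the Shannon entropy and low where few genes dominate, was 1092, 416 and 1281 at stage 61 and 1137, 1876 and 938 at stage 65. Its exact permutation p was 0.5 (adjusted p = 0.75), and replicate 2 of stage 61 was again at the extreme.

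**Figure D1:**
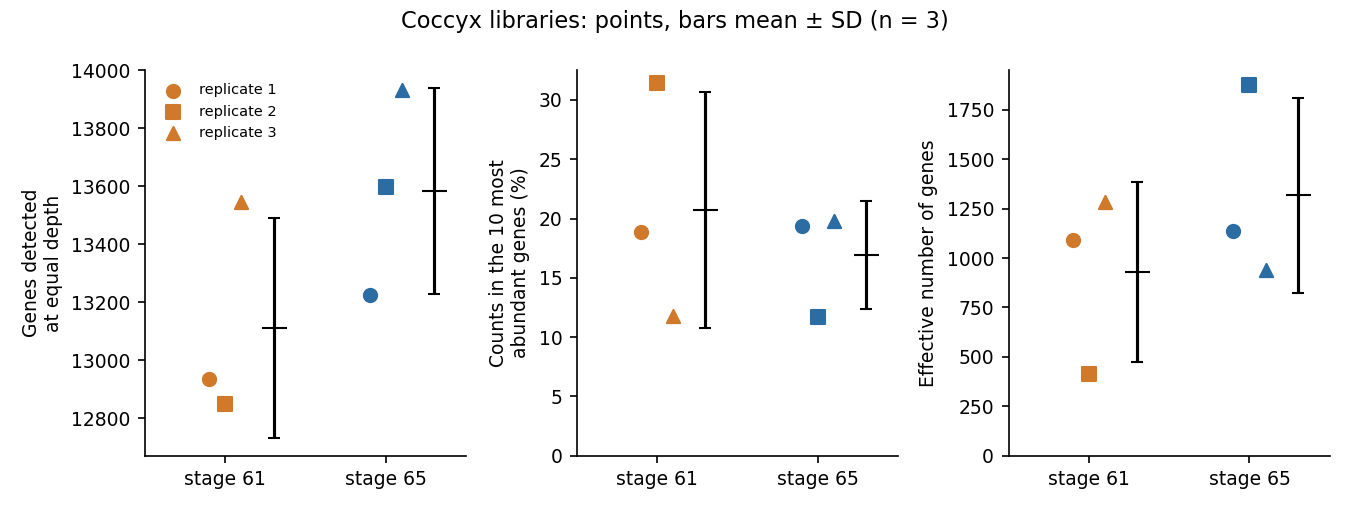
Genes detected at equal depth, percentage of counts in the top 10 genes and effective number of genes in each coccyx library, by stage. Points are libraries, with the shape giving the replicate, and bars are the mean ± SD of 3 libraries; replicate 2 of stage 61 has the highest share in the 10 most abundant genes, 31.5%, and the lowest effective number of genes, 416.

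The most abundant gene was the same in replicate 1 of stage 61 and in both stage 65 libraries of that table. It took 4.59% of counts in replicate 1 of stage 61, and 7.06% and 3.02% at stage 65. Replicate 2 of stage 61 was led by another gene, with 6.92%. Of the 10 most abundant genes, the stage 65 replicates 1 and 2 shared 6 and the stage 61 replicates shared 4. Replicate 1 of stage 61 shared 5 and 3 of its 10 with the stage 65 libraries, while replicate 2 shared 2 and 1. In replicate 3 the stages shared 6 of 10 and were led by the same gene, with 1.78% of counts at stage 61 and 7.99% at stage 65.

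The replicates of stage 61 differed from each other more than replicate 1 of stage 61 differed from either stage 65 library. Over 6997 genes with a mean of at least 8 CPM, the counts of a gene scaled to a fixed library size, in the 4 coccyx libraries of replicates 1 and 2, 640 genes (9.15%) were past 4-fold between the stage 61 replicates. Between the stage 65 replicates 49 genes (0.700%) were past 4-fold. Replicate 1 of stage 61 differed past 4-fold from stage 65 replicate 1 at 181 genes and from stage 65 replicate 2 at 211 genes. Replicate 2 of stage 61 differed from them at 479 and 702 genes. In replicate 3, 349 of 7682 genes (4.54%) were past 4-fold between the stages. The SD of the log2 ratio was 1.21 between the stage 61 replicates, 0.632 between those of stage 65 and 0.948 between the stages in replicate 3, whose libraries were deeper. Pairs of replicates 1 and 2 used TMM-normalised CPM and replicate 3 used CPM by total counts, each with a prior of 2 CPM. The genes were also chosen within each table, so replicate 3 is not on the same basis as the other pairs.

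**Figure D2:**
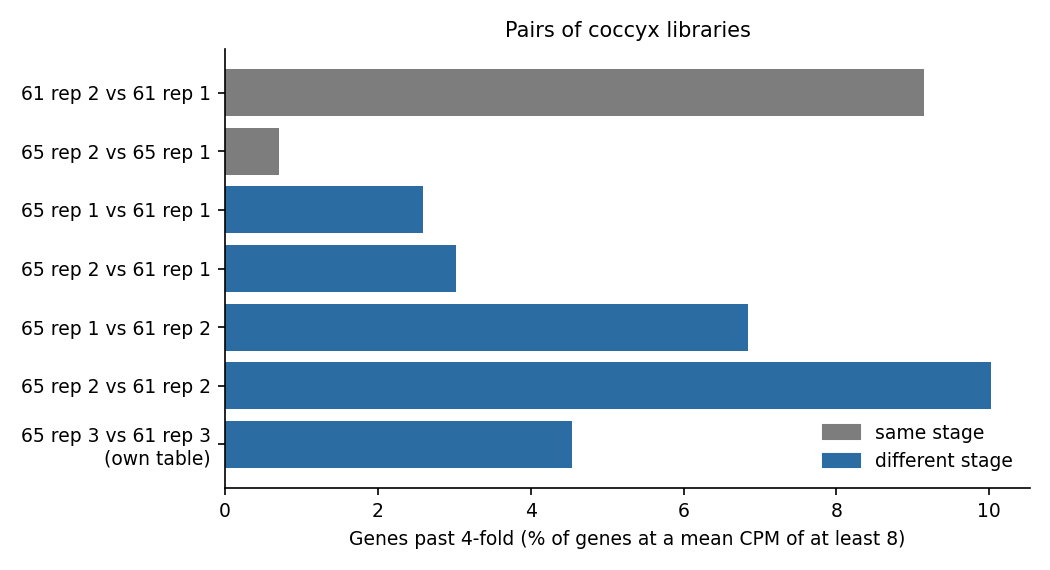
Percentage of genes past 4-fold between pairs of coccyx libraries, among genes with a mean of at least 8 CPM, with pairs of the same stage in grey and pairs of different stages in blue. The pair of stage 61 replicates reaches 9.15%, more than the 2.59% and 3.02% between stage 61 replicate 1 and the stage 65 libraries.

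No gene passed the test between stages in the coccyx. The comparison asks which genes of the coccyx change while the tail is lost. In the libraries of replicates 1 and 2, edgeR's quasi-likelihood test gave 0 of 10959 genes (0% called) with an adjusted p under 0.05, and the smallest adjusted p was 0.153. At an unadjusted p under 0.05 there were 372 genes, or 3.39% of those tested. Of these, 108 (0.985%) were higher and 264 (2.41%) lower at stage 65. If no gene changed, a larger share, 0.05 of the genes, would be expected at this limit, so these counts are only a description. On the same libraries limma voom called 0 genes and had 423 at an unadjusted p under 0.05. DESeq2 called 98 of 10746 genes (0.912%), 10 higher (0.0931%) and 88 lower (0.819%). Leaving out replicate 1 of stage 61 coccyx gave 6 genes in edgeR's test, all lower at stage 65. Stage 61 coccyx then rested on replicate 2 alone, which was assumed to vary like the other groups. Leaving out either of the stage 61 hypochord libraries, which enter the spread, the scaling and the filter, gave 3 or 4, all lower, and leaving out any other library gave 0.

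The values of replicates 1 and 2 did not overlap between stages at 1808 genes that were higher at stage 65 (16.5% of those tested) and 1610 that were lower (14.7%), and none of these passed the adjusted threshold. With 2 libraries a side, unchanged genes also separate often by ranking alone, so these counts are only a description. Among the 6997 genes at 8 CPM or more, 162 (2.32%) were lower at stage 65 by more than 4-fold without overlap, and 51 (0.729%) were higher by as much. This rule was chosen after the test had called no gene, and these sets are a description with no test. Their median log2 fold changes were -3.41 and 2.46, against 0.02 over all 6997 genes. The lower set reached -10.35 and held 57 genes past 16-fold, and the higher set reached 6.41 and held 5. The genes nearest to the limit had log2 fold changes of 2.01 inside and 1.98 outside in size for the lower set, and 2.0043 inside for the higher set, with the next gene just under 2.

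The excess of lower over higher genes was lost when counts were scaled to totals, and it depended on single libraries. Scaled to total counts, in place of the TMM factors that align the bulk of genes, the median of all genes moved up by 0.54 on the log2 scale, 142 genes were higher and 115 lower, and at an unadjusted p under 0.05 there were 278 higher and 158 lower. Leaving out a library also makes the rule easier to meet, since fewer values have to lie apart. Without replicate 1 of stage 61, which left replicate 2 alone for that stage, 444 genes were higher and 267 lower. Without replicate 2 of stage 61, 79 were higher and 134 lower, and 95 of the 162 genes of the lower set were still among them, with 23 of the 51 of the higher set. Without replicate 1 of stage 65 the numbers were 91 and 216, and without replicate 2 of stage 65 they were 40 and 192.

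Among the most abundant genes, those lower at stage 65 outnumbered those higher under each of these settings, which share libraries. Abundance was the mean of the compared coccyx libraries. A gene far lower at stage 65 therefore enters a class mainly through its stage 61 values, and a gene far higher through its stage 65 values. Of 251 genes at 512 CPM or more, 29 were lower and 1 was higher by more than 4-fold without overlap. With total counts the numbers were 26 and 5. Without replicate 1 or 2 of stage 61 they were 46 and 16, and 15 and 2. Without replicate 1 or 2 of stage 65 they were 35 and 3, and 31 and 2. At 8 to 32 CPM, 64 genes were lower and 37 higher, which turned to 44 and 96 with total counts, to 122 and 255 without replicate 1 of stage 61 and to 60 and 63 without replicate 2 of stage 61. At 32 to 128 CPM, 43 were lower and 12 higher, against 30 and 34 with total counts and 71 and 128 without replicate 1 of stage 61. At 128 to 512 CPM, 26 were lower and 1 higher, against 28 and 45 without replicate 1 of stage 61. In both ranges the other settings kept more lower than higher genes. In replicate 3, 19 of 232 genes at 512 CPM or more were lower past 4-fold and 3 were higher, and at 8 to 32 CPM 74 of 4185 were lower and 87 higher.

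**Figure D3:**
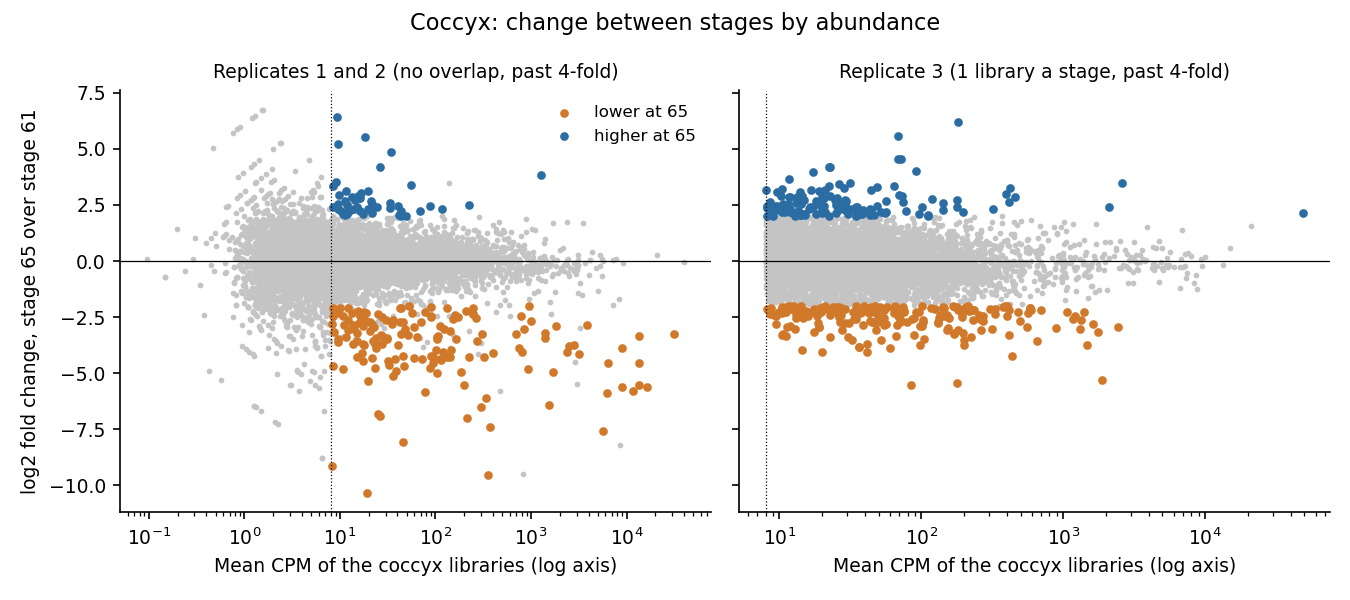
Log2 fold change of stage 65 over stage 61 against the mean CPM of the coccyx libraries (log axis), with a point per gene, for replicates 1 and 2 on the left and for replicate 3, by total counts and with a prior of 2 CPM, on the right. Coloured genes are past 4-fold at a mean of 8 CPM or more, on the left also without overlap of the stages: 162 are lower and 51 higher on the left, 214 lower and 135 higher on the right.

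The 162 genes of the lower set took a large part of the stage 61 libraries. They held 14.5% of counts in replicate 1 and 38.7% in replicate 2 of stage 61, against 3.26% and 1.84% at stage 65. In the earlier coccyx libraries, which the choice did not use, they held 14.4% at stage 56 and 12.2% at stage 58. Their median level was 57.6 and 112 TMM-normalised CPM at stage 61, 7.94 and 7.54 at stage 65, 70.9 at stage 56 and 36.6 at stage 58. The gap between stages 61 and 65 is fixed by the choice of the set, which also favours genes that are low at stage 65.

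The same genes had a high share in replicate 2 of the stage 61 hypochord as well. Hypochord libraries held 37.9% of counts in this set in replicate 2 of stage 61, but 4.78% in replicate 1. At stage 65 they held 6.70% and 6.86%, so that the hypochord stages overlapped in this share. Of the 162 genes, 145 (89.5%) had a lower fitted level at stage 65 in hypochord, against 49.8% of the 6997 genes, and the median hypochord log2 fold change was -2.72 against 0.00. The median level of the 162 genes in hypochord was 15.7 and 133 TMM-normalised CPM in replicates 1 and 2 of stage 61. At stage 65 it was 12.7 and 15.5, so by this median only replicate 2 of stage 61 stood far above stage 65. Without overlap, 55 of the 162 genes (34.0%) were lower at stage 65 in hypochord, against 19.1% of the 6997 genes. The labels give both tissues the same replicate numbers, and the deviations of replicates 1 and 2 at stage 61 correlated between tissues (r = 0.40, and 0.25 at stage 65, over 10959 genes, as a description). Whether they share animals is not given, and the part of replicate 2 of stage 61 in these values was not tested.

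The 51 genes of the higher set were minor parts of each library. They held 0.0996% and 0.0163% of counts at stage 61 and 0.323% and 0.972% at stage 65 in coccyx. At stage 56 they held 0.0923%, and at stage 58 they held 0.354%, above replicate 1 of stage 65. Their median level was 6.56 and 2.69 TMM-normalised CPM at stage 61, and 23.5 and 35.8 at stage 65. In hypochord they held 0.272% and 0.0173% at stage 61 and 0.338% and 0.588% at stage 65. There 17 of the 51 (33.3%) were higher at stage 65 without overlap, against 18.3% of the 6997 genes. Their median hypochord level was 0.968 and 0.589 CPM at stage 61 and 1.52 and 6.03 CPM at stage 65, so many of these values rest on few counts. Among the libraries of stages 61 and 65, replicate 2 of stage 61 had the lowest share in both tissues.

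**Figure D4:**
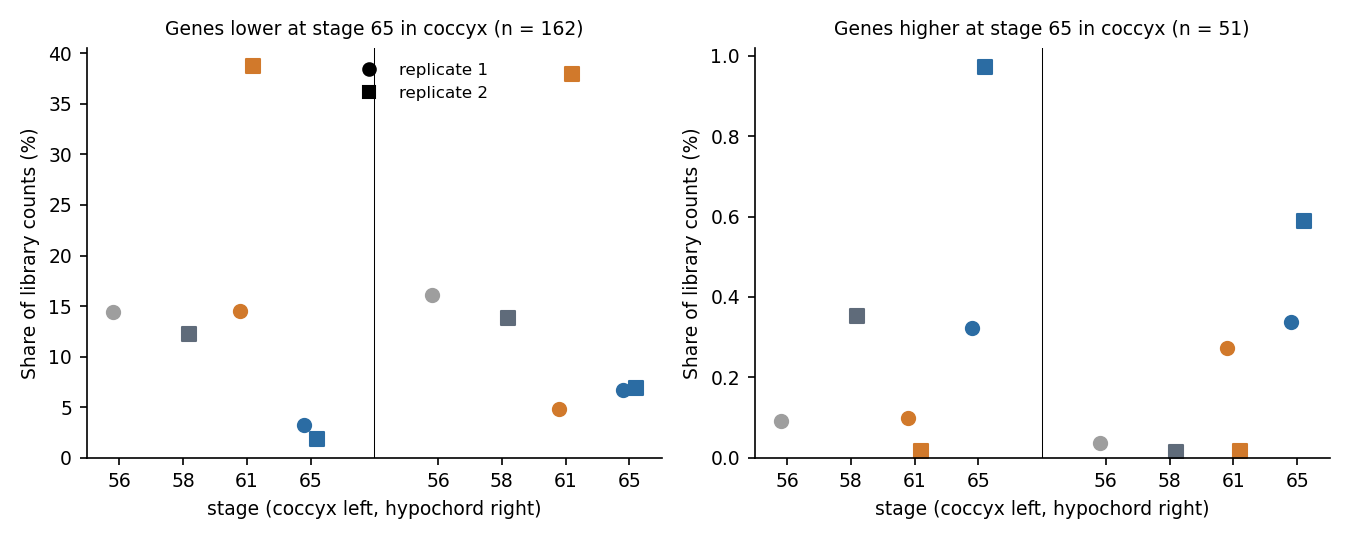
Percentage of library counts held by the genes past 4-fold lower (left, 162 genes) and higher (right, 51 genes) at stage 65 in coccyx, in each library of replicates 1 and 2, by stage, with coccyx left and hypochord right of the line in each panel. Points are single libraries; the lower set reaches 38.7% and 37.9% in the coccyx and hypochord libraries of stage 61 replicate 2.

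Full values follow for 4 genes, the 2 in each direction with the smallest p. They were taken from genes whose stages did not overlap and whose log2 of CPM plus 2 averaged 3 or more over the coccyx libraries. None passed the threshold of edgeR's test, and with DESeq2 all 4 did, the highest adjusted p being 0.0188. Since they were chosen by edgeR's p on the same counts, the DESeq2 result is not separate evidence. All levels are TMM-normalised CPM, which compare libraries and not genes, since they are not divided by gene length.

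ENSXETG00000003243 had 61.8 and 35.9 CPM in replicates 1 and 2 of stage 61 coccyx and 0.603 and 0.219 CPM at stage 65. The stages did not overlap, and both stage 65 libraries were near 0, with 3 counts and 1 count. Pooled counts were 526 at stage 61 and 4 at stage 65, a ratio of 80.5 with a 95% exact interval of 31.25 to 296.5, which covers counting error only. The log2 fold change by edgeR, -6.82 ± 0.80 (SE), had an adjusted p of 0.153, which ran from 4.15e-09 to 1 over 19 alternatives. Without replicate 1 of stage 65 coccyx it was -7.68. Earlier coccyx libraries had 1.93 CPM at stage 56 and 15.02 CPM at stage 58. The gene was higher in hypochord, with 255 CPM at stage 56, 386 at stage 58, 439 and 179 at stage 61, and 15.9 and 10.4 at stage 65, where its log2 fold change was -4.54 ± 0.65 (SE, adjusted p = 0.175).

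ENSXETG00000006540 had a like pattern. In coccyx it had 56.9 and 46.6 CPM at stage 61, 0.402 and 0.437 CPM at stage 65, 8.89 CPM at stage 56 and 12.6 CPM at stage 58. Stage 61 was thus the highest of the 4 stages in coccyx for both genes, and stage 65 the lowest. The choice of these genes fixed the order of stages 61 and 65 and favours high values at stage 61 and low ones at stage 65. Stages 56 and 58 had a single coccyx library each here. Pooled counts were 555 and 4, a ratio of 84.9 (95% exact interval 33.0 to 313), and edgeR's log2 fold change of -6.89 ± 0.94 (SE) had an adjusted p of 0.217 (2.61e-08 to 1 over 19 alternatives). In hypochord it had 572 CPM at stage 56, 302 at stage 58, 782 and 149 at stage 61, and 11.4 and 12.1 at stage 65. Each hypochord library before stage 65 thus held more of both genes than any coccyx library, and how much hypochord tissue the coccyx pieces held was not tested.

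ENSXETG00000021647 had 0.729 and 4.80 CPM in replicates 1 and 2 of stage 61 coccyx and 45.2 and 56.6 CPM at stage 65. At stage 56 it had 13.3 CPM and at stage 58 2.12 CPM, between the levels of stages 61 and 65 or within those of stage 61. Pooled counts were 29 and 484, a ratio of 27.3 (95% exact interval 18.75 to 41.2), and edgeR's log2 fold change of 4.17 ± 0.87 (SE) had an adjusted p of 0.671 (0.000792 to 1 over 19 alternatives). It was 5.98 without replicate 2 of stage 61 coccyx, 3.39 without replicate 1 of stage 61 coccyx and 4.90 with total counts. In hypochord the order of these stages was the opposite, with 22.9 and 65.4 CPM at stage 61 and 6.83 and 13.7 CPM at stage 65. Earlier hypochord libraries had 5.95 CPM at stage 56 and 0 counts at stage 58.

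ENSXETG00000011564 had 3.83 and 4.03 CPM at stage 61 and 20.7 and 37.1 CPM at stage 65 in coccyx. Its level at stage 58, 60.2 CPM, was above both later stages, and at stage 56 it was 9.86 CPM. Pooled counts were 42 and 273, a ratio of 10.6 (95% exact interval 7.65 to 15.1), and edgeR's log2 fold change of 2.83 ± 0.62 (SE) had an adjusted p of 0.671 (0.0188 to 1 over 19 alternatives). With total counts it was 3.41. Hypochord showed a like difference, with 2.13 and 2.06 CPM at stage 61 and 12.9 and 33.0 CPM at stage 65. Its single stage 58 library had 33.6 CPM, as high as the higher stage 65 library, and that of stage 56 had 0.192 CPM.

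**Figure D5:**
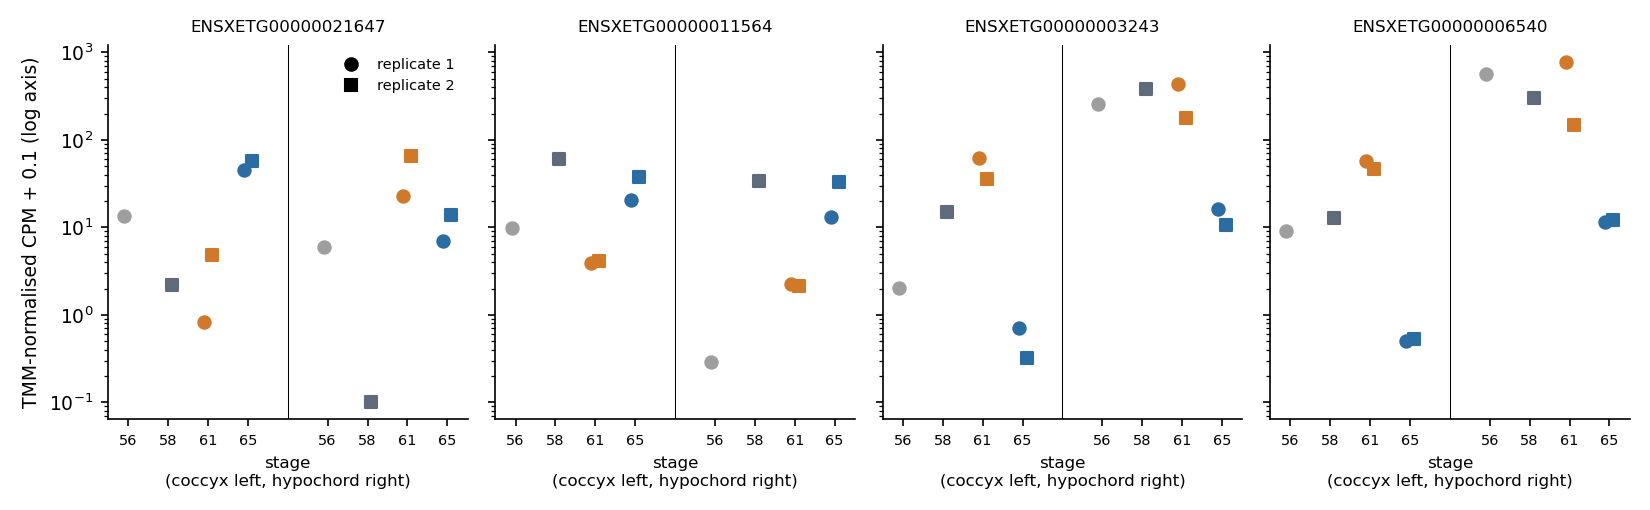
TMM-normalised CPM plus 0.1 (log axis) of the 4 genes given by identifier, in each library of replicates 1 and 2, by stage, with coccyx left and hypochord right of the line. Points are single libraries; in coccyx ENSXETG00000003243 and ENSXETG00000006540 lie below 1 CPM at stage 65, and ENSXETG00000021647 lies higher at stage 65 in coccyx but lower in hypochord.

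Whether the change between stages differed between coccyx and hypochord was tested in the same fit. This fit treated the libraries as independent. Replicate deviations correlated between the tissues (r = 0.40 at stage 61 and 0.25 at stage 65), and a fit that pairs the tissues was not run. By edgeR's test of this interaction 0 of 10959 genes (0% called) had an adjusted p under 0.05, with 353 (3.22%) at an unadjusted p under 0.05. That share is also below the 0.05 expected if no gene differed. DESeq2 called 2 genes (0.0182%), both with the more positive change in coccyx, and limma voom called 0. The change of ENSXETG00000021647 had the largest such gap of the 4 genes, 6.28 ± 1.17 on the log2 scale (SE, adjusted p = 1). In hypochord alone edgeR called 0 genes between the stages, with 1020 (9.31%) at an unadjusted p under 0.05, and DESeq2 called 179 of 8409 (2.13%).

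Few genes were counted at a single stage. In replicates 1 and 2, 3 of 19921 genes (0.0151%) had at least 10 counts in both stage 61 coccyx libraries and none at stage 65, and 3 had the reverse (0.0151%). The first of the stage 61 genes had 55 and 122 counts in coccyx and was also counted in the stage 61 hypochord, 791 and 147 times, and in the stage 65 hypochord, 8 times and 1 time. The other stage 61 genes had 29 and 10, and 11 and 11 counts. All 3 had counts in the coccyx of stages 56 and 58. The stage 65 genes had 21 and 10, 11 and 19, and 11 and 14 counts, and the second of them had 0 counts in the coccyx of stages 56 and 58. A count of 0 allows up to 3 counts, so that these low totals give weak bounds. In replicate 3, with 1 deeper library a stage, 224 of 21458 genes (1.04%) met this rule for stage 61 and 360 (1.68%) for stage 65, with medians of 16 and 18 counts.

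Replicate 3 alone gave 214 genes (2.79% of 7682) lower and 135 (1.76%) higher past 4-fold at stage 65. There was 1 library a stage, so no test was made. Past 16-fold there were 6 lower and 7 higher genes. The lower genes held 6.92% of counts at stage 61 and 1.04% at stage 65, and 1.96% at stage 56. The higher genes held 2.05% at stage 61 and 9.98% at stage 65, and 1.54% at stage 56. The most abundant gene of both libraries was one of them. With 1.78% of counts at stage 61 and 7.99% at stage 65, it made up most of both shares. The median level of the higher genes was 6.19 CPM at stage 56, 4.74 at stage 61 and 43.6 at stage 65. The median level of the lower genes was 8.96 CPM at stage 56, 91.8 at stage 61 and 14.6 at stage 65. The order of stages 61 and 65 follows from the choice of these genes, which also favours genes that are high in the single stage 61 library. The genes of the sets could not be matched between the tables.

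The largest changes of replicate 3 differed in what came before them. The steepest drop belonged to a gene with 10.9 CPM at stage 56, 168 at stage 61 and 1.63 at stage 65, a ratio of 103 between the last stages (95% exact interval 63.95 to 177). The second had 22.6, 349 and 6.05 CPM at these stages, and the fourth had 16.6, 823.5 and 41.75 CPM. The third alone was already high at stage 56, with 4530 CPM there, 3678 at stage 61 and 91.1 at stage 65. Its hypochord levels were 3663, 3243 and 26.8 CPM at the same stages. Among the higher genes, ranked like the lower ones by the log2 ratio with a prior of 2 CPM, the first had 0 counts at stage 56, 2.86 CPM at stage 61 and 359 CPM at stage 65, a ratio of 126 (95% exact interval 88.85 to 184). The second had 0 counts at stage 56, 0.894 CPM at stage 61 and 136 at stage 65. Its ratio without the prior was larger, 152 (82.6 to 318). The third had 103 CPM at stage 56, 3.8 at stage 61 and 134 at stage 65. The fourth had 597 CPM at stage 56, 4.11 at stage 61 and 139 at stage 65, and in hypochord it had 41.8 CPM at stage 56 and 0 counts later. Thus the first was near 0 until stage 65, while the fourth was low at stage 61 alone among the coccyx libraries.

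In hypochord of replicate 3, 29 of the 214 lower genes (13.6%) were lower past 4-fold at stage 65, against 2.79% of the 7682 genes, and 55 of the 135 higher genes (40.7%) were higher past 4-fold, against 15.4%. The median hypochord log2 ratio of the 214 lower genes was -0.12, against 0.35 for the 7682 genes. Below 0 were 58.4% of the lower genes, against 38.4% of the 7682. The lower genes had a median of only 3.03 CPM in hypochord at stage 61 and 2.69 at stage 65. At such levels the prior of 2 CPM pulls ratios toward 0. Their share of hypochord counts was 1.19% at stage 61 and 0.327% at stage 65. The median of -2.72 for the lower set of replicates 1 and 2 came from a TMM-scaled fit without this prior. It covers genes that could not be matched, so the 2 medians are not on the same basis. Over genes chosen by their own hypochord level, 934 of 6905 (13.5%) were higher and 337 (4.88%) lower past 4-fold. That excess of higher genes lay below 128 CPM, with 709 higher and 207 lower at 8 to 32 CPM and 183 and 82 at 32 to 128 CPM. Above that there were 31 and 37 at 128 to 512 CPM, and 11 and 11 at 512 CPM or more. The table has no replicate, and the difference between the tissues was not tested.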

How the data were processed

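RNA was counted per gene in laser-captured tissue of 18 libraries. Per the submitters' processing notes the authors used FastQC, cutadapt 1.8.1 and HTSeq 0.13.5, and each deposited file holds the raw counts of a single library. Neither aligner, build, annotation nor strand use is stated in the sources used here, so that overlapping genes and near-identical copies have uncertain counts. Libraries carry no molecular identifiers, and intervals cover counting error only. Of the identifiers, 0 were found in the RefSeq gene table, so that planned gene lists and markers were not used.

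Counts of replicates 1 and 2 of both tissues at stages 61 and 65 (8 libraries, 4 groups) entered a fit in edgeR 4.0.16 (R 4.3.3). The steps were TMM, filterByExpr by group, robust quasi-likelihood fits (4 residual degrees of freedom, common biological coefficient of variation 0.55) and Benjamini-Hochberg adjustment over 10959 genes at 0.05. The code was tested on counts simulated with a smaller spread than the fitted one and with no deviating library. That test checks the code and does not show how the method performs at the spread of these data. Standard errors come from the fold change and its F statistic. CPM of single genes and medians of sets use TMM factors over the 12 libraries of replicates 1 and 2. Shares of counts use totals, and ratios of pooled counts use totals with exact binomial intervals. Replicate 3 used log2 ratios of CPM by totals with a prior of 2 CPM at a mean of at least 8 CPM. DESeq2 1.42.0 left 213 adjusted p as NA in the coccyx comparison. In hypochord 8409 genes had an adjusted p, and in the interaction all 10959 did. The voom fit came from limma 3.58.1.

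The rule for genes given by identifier took genes past the threshold first, then those of smallest p. The log2 of CPM plus 2 had to average 3 or more, and the stages could not overlap. The libraries and the rules were chosen with earlier results of these data known.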

Additional observations from a re-analysis of the deposited data

Results flagged for a closer look

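ENSXETG00000021647 was picked out because all its coccyx libraries of replicates 1 and 2 were higher at stage 65 than at stage 61, and all its hypochord libraries were lower. The coccyx log2 fold change was 4.17 and that of hypochord was -2.11, a gap of 6.28 ± 1.17 (SE). In edgeR's test of this gap over all 10959 genes the adjusted p was 1. The gene was given by identifier for its coccyx values and singled out here for the values of both tissues, so that this gap is a description.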

How the results depend on the processing

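The count of 0 genes in coccyx held with RLE size factors, total counts, limma voom, a minimum mean of 10 CPM, the 4 coccyx libraries alone, the 6 of all stages, the 10 of stages 56, 61 and 65, and no robust shrinkage. DESeq2 called 98, and with no filter on low counts edgeR called 7, all lower at stage 65. Leaving out libraries gave 0 to 6. For the interaction, where no setting paired the tissues, DESeq2 called 2, and the other alternatives gave 0. The cause of these gaps was not tested. Replicates 1 and 2 of stages 61 and 65 coccyx had deviations with r = -0.16 over 10959 genes, and the numbers were read as names, not as pairs, between stages. With the replicate block 0 genes were called, with 277 at an unadjusted p under 0.05, and with the numbers crossed, added after seeing the data, 0 with 383.

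The sets past 4-fold without overlap were added after seeing the data. With RLE size factors 50 genes were higher and 162 lower, while total counts gave 142 higher. At a minimum of 1 CPM there were 156 higher and 285 lower, and 14 and 98 at 32 CPM. Leaving out coccyx libraries, which leaves fewer values that must lie apart, gave 40 to 444 higher and 134 to 267 lower. Genes counted at a single stage were 19 for stage 61 and 16 for stage 65 at 5 counts, 1 and 0 at 20 counts, and 17 to 26 and 7 to 49 when a library was left out, which leaves fewer libraries to meet the rule. In replicate 3 a prior of 8 CPM gave 44 higher and 113 lower genes, and a minimum of 32 CPM gave 48 and 140. The difference in the share of the 10 most abundant genes ran from -8.24 to 1.604 percentage points when a library was left out, and it reversed without replicate 2 of stage 61. The log2 fold changes of the 4 genes given by identifier kept their sign under 19 alternatives each. At most 2 libraries a group could be tested, and counts near 0 limit the folds of the steepest genes.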
